A study of Bos taurus with 6 samples.

Results

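SUSD4, C1R and C1QTNF3 were described together with the complement genes C1S, C3, SERPING1, CFB, CFD and CD55 in primary myoblasts treated with resveratrol (RSV). The 9 genes were listed by symbol, and an mRNA entered where a list of DE mRNAs published with the study pairs that symbol with an Ensembl identifier. Of the 9 genes, 7 were found in this way, among 20459 mRNAs with reads. CFD and CD55 were not paired with an identifier and were not analysed here. The list was at hand only in a shortened form, so a gene that was not paired may still be a DE mRNA. The published list holds DE mRNAs of the same comparison, so the differences of these genes between the groups chose them and are given as a description without a test. The cells were cultured from the fetal longissimus dorsi muscle of beef cattle. The RSV group consisted of 3 cultures in differentiation medium with 20 μM RSV, a polyphenol of grapes and nuts, dissolved in DMSO, and the control group of 3 cultures in the same medium with DMSO alone. The description of the experiment gives 4 days of treatment, and the methods describe 3 independent experiments per group without stating the number of fetuses. The groups therefore share the medium, the solvent and the muscle of origin, and they differ in RSV. Whether RSV and DMSO cultures came from the same fetuses or cell preparations is not stated.

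Complement is a cascade of blood and tissue proteins that marks particles for removal and can open pores in membranes. In the classical pathway the proteases C1r and C1s, held by C1q, start the cleavage steps that lead to C3, the protein on which all routes converge. Factor B (CFB) and factor D (CFD) drive the alternative pathway. Inhibitors hold the cascade in check, among them C1 inhibitor (SERPING1), which binds and blocks C1r and C1s, and CD55, which speeds the decay of C3 convertases. SUSD4 is a membrane or secreted protein with sushi domains, the repeat found in many complement regulators, and has been described as an inhibitor of complement. C1QTNF3 (CTRP3) carries the globular domain of C1q but belongs to the secreted C1q/TNF-related proteins, and it is not a component of the cascade. Most complement proteins in blood come from the liver, and fibroblasts and other mesenchymal cells also make C1r, C1s, C3 and C1 inhibitor.

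The deposited table gives the mean normalized read count of each group, that is, reads divided by a size factor that scales a library for its depth. Whole reads of single libraries were recovered from these means for 19965 of the 20459 mRNAs (97.59%), including all 7 genes. The libraries are called a, b and c within each group in order of decreasing size factor. The letters are not the sample numbers, and equal letters do not pair an RSV with a DMSO library. The recovered reads summed to between 9763779 and 11742553 per library. RSV library c stood apart from the other RSV libraries. Over 10888 mRNAs that averaged 100 or more normalized reads, the log2 difference between library c and the mean of a and b ran from −0.63 to 0.44 between the 5th and the 95th percentile in the RSV group. The corresponding DMSO values were −0.18 and 0.18. Differences below are therefore also given without RSV library c.

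SUSD4 was higher in all 3 RSV libraries than in any DMSO library, and C1R, C1S, C3, CFB, SERPING1 and C1QTNF3 were lower. Groups that did not overlap, with higher values in RSV, were found for 1 of the 7 genes, against 27.1% of the 14533 mRNAs that averaged 10 or more normalized reads. Groups that did not overlap, with lower values in RSV, were found for 6 of the 7, against 26.0% of these mRNAs. In a linear model on log2 reads (limma voom, adjusted p under 0.05 after Benjamini-Hochberg adjustment over all 14533 mRNAs), 16.8% of mRNAs were higher and 17.0% lower in RSV. Since the genes come from a list of DE mRNAs, the number that differ says nothing beyond that choice, and their directions were not tested. A fitted log2 difference of 1 or more was reached by 1 of the 7 genes and by 4.87% of all mRNAs, and one of −1 or lower by 4 of the 7 genes and by 3.45% of all mRNAs. The median fitted log2 difference (RSV minus DMSO) of the 7 genes was −1.54, and that of all mRNAs was 0.01. A list of DE mRNAs also favours large differences, so all mRNAs are not a like base for these sizes. Among mRNAs called by limma voom, an absolute log2 difference of at least 1 was reached by 558 of 2442 higher and 436 of 2464 lower.

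**Figure D1:**
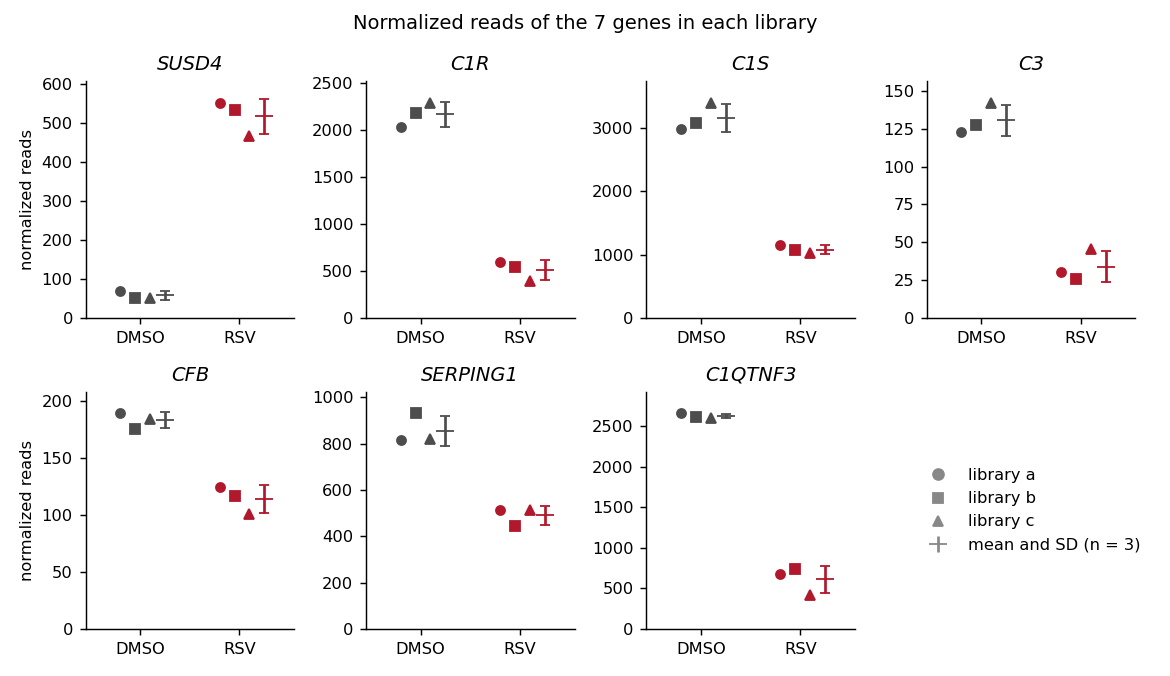
Normalized reads (vertical axis, from 0) of the 7 genes in each recovered library, DMSO in grey and RSV in red, with the mean and SD of 3 libraries beside the points. SUSD4 lies higher in RSV, and the other 6 genes lie lower, without overlap between the groups in any panel.

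Among the inhibitors, SUSD4 (ENSBTAG00000020989) had 552, 533 and 466 normalized reads in RSV libraries a, b and c, and 70.6, 52.1 and 51.9 in DMSO libraries a, b and c. The lowest RSV library was 6.60 times the highest DMSO library. The mean was 517 ± 45.5 (SD, n = 3) in RSV and 58.2 ± 10.7 (SD, n = 3) in DMSO. The fitted log2 difference was 3.15 with a standard error of 0.18, or 8.87-fold higher in RSV, the 39th highest of 14533 mRNAs. Without RSV library c the log2 difference was 3.22. The DMSO values rest on 68, 50 and 46 reads, and in relative terms the DMSO libraries spread more (coefficient of variation 18.4%) than the RSV libraries (8.81%).

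SERPING1 (ENSBTAG00000016267), the inhibitor of C1r and C1s, differed in the other direction. It had 513, 444 and 515 normalized reads under RSV and 815, 931 and 818 under DMSO, in libraries a, b and c. Every RSV library lay below every DMSO library, and the lowest DMSO library was 1.58 times the highest RSV library. The fitted log2 difference was −0.80 (standard error 0.09), or 1.74-fold lower in RSV, and −0.84 without RSV library c.

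A list of 53 complement genes was searched for further members of the system. Of the 53, 11 (20.8%) could be paired with an identifier through the shortened list of DE mRNAs. This share is too small to describe the system as a whole, and every paired gene is a DE mRNA by that choice. Of the 17 inhibitors and regulators, 4 were paired, of which 3 had higher and 1 had lower values in RSV, against 16.8% and 17.0% of all mRNAs called higher and lower. That each of the 4 differed follows from the choice. A list of DE mRNAs does not set their directions, but the genes and lists were chosen with earlier results of these data known. The counts are therefore no test. Beside SUSD4 and SERPING1 the paired genes were CLU and THBD. CLU (clusterin), a chaperone that also inhibits the terminal complex, had 3650 to 4145 normalized reads in RSV and 1752 to 1970 in DMSO, with a log2 difference of 1.09 (standard error 0.07), and 1.09 also without RSV library c. THBD (thrombomodulin), a membrane protein of clotting control that also helps to inactivate C3b, had 498 to 632 in RSV and 249 to 317 in DMSO, with a log2 difference of 1.02 (standard error 0.13), and 0.93 without that library. For both genes the groups did not overlap, with RSV higher.

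**Figure D2:**
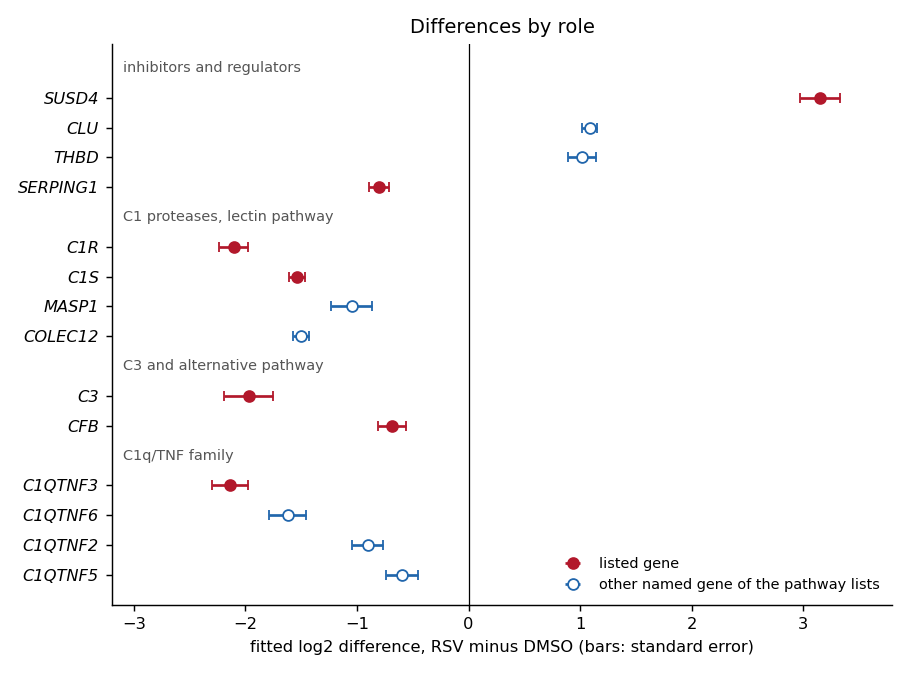
Fitted log2 difference, RSV minus DMSO, with its standard error, for the 7 genes (filled) and 7 further named genes of the complement and C1q/TNF lists (open), grouped by role. SUSD4, CLU and THBD lie to the right of 0, and the other 11 genes lie between −2.14 and −0.60.

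C1R (ENSBTAG00000008612) and C1S (ENSBTAG00000004840) encode the proteases of the C1 complex. C1R had 594, 543 and 394 normalized reads in RSV libraries a, b and c, against 2035, 2178 and 2294 under DMSO. The lowest DMSO library was 3.43 times the highest RSV library. The mean of C1R was 510 ± 104 (SD, n = 3) in RSV and 2169 ± 130 (SD, n = 3) in DMSO. Its fitted log2 difference was −2.10 (standard error 0.13), or 4.30-fold lower in RSV, the 73rd lowest of all mRNAs, and −1.93 without RSV library c.

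C1S had 1159, 1072 and 1022 normalized reads under RSV and 2990, 3087 and 3403 under DMSO. Its mean was 1084 ± 69.5 (SD, n = 3) in RSV and 3160 ± 216 (SD, n = 3) in DMSO. The fitted log2 difference was −1.54 (standard error 0.07), or 2.91-fold lower in RSV. Leaving out RSV library c moved it to −1.50. In RSV the 3 libraries of C1S lay closer together (coefficient of variation 6.42%) than those of C1R (20.4%).

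The proteases did not differ to the same degree. The ratio of C1R to C1S normalized reads was 0.512, 0.506 and 0.385 under RSV and 0.681, 0.706 and 0.674 under DMSO. All RSV ratios lay below all DMSO ratios, with RSV library c the lowest. On the log2 scale the mean ratio was −1.11 ± 0.23 (SD, n = 3) in RSV and −0.54 ± 0.03 (SD, n = 3) in DMSO. The difference was −0.57, and −0.43 without RSV library c. These ratios compare reads within a library and not levels per length of transcript. The ratio of C1S to SERPING1 was 2.26, 2.41 and 1.98 under RSV and 3.67, 3.32 and 4.16 under DMSO. The reads of the protease were thus lower relative to those of its inhibitor in each RSV library. The same held for C1R. Reads of SERPING1 per read of C1R were 0.864, 0.818 and 1.31 under RSV and 0.400, 0.427 and 0.357 under DMSO. The log2 difference between the groups was −0.74 for C1S to SERPING1 and 1.31 for SERPING1 to C1R. Leaving out RSV library c moved these differences to −0.66 and 1.09.

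**Figure D3:**
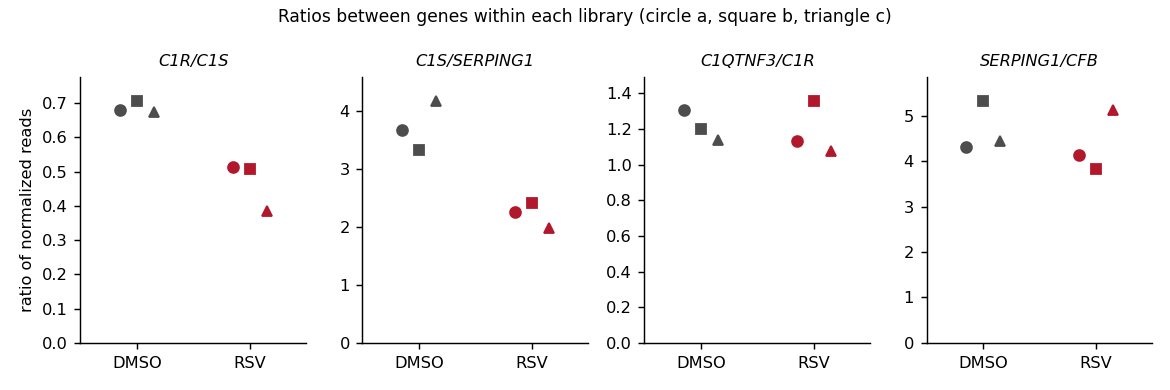
Ratio of normalized reads between 2 genes within each library (vertical axes from 0), DMSO in grey and RSV in red, with a circle, square and triangle for libraries a, b and c. C1R/C1S and C1S/SERPING1 are lower in all RSV libraries, whereas C1QTNF3/C1R and SERPING1/CFB overlap between the groups.

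In the RefSeq annotation of ARS-UCD2.0, a newer assembly than the one the labels name (bosTau8), C1R and C1S are neighbouring protein-coding genes. A lncRNA, LOC112446757, overlaps C1R there, another, LOC132345709, overlaps C3, and an snRNA, LOC112443059, overlaps C1QTNF3. Whether the reads were counted by strand is not given in the sources used here. Reads of such a transcript could therefore not be told apart from those of C1R, C3 or C1QTNF3. CFB lies next to C2, which was not paired with an identifier.

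Among the 17 genes listed under the start of the classical and lectin pathways, 4 were paired through the list of DE mRNAs. All 4 had lower values in RSV. That they differ follows from the choice, and their direction was not tested. Of all mRNAs, 16.8% were called higher and 17.0% lower. Beside C1R and C1S the paired genes were MASP1 and COLEC12. MASP1, a protease of the lectin pathway related to C1r and C1s, had 154, 185 and 102 normalized reads under RSV and 301, 286 and 306 under DMSO. Its log2 difference was −1.05 (standard error 0.18), and −0.81 without RSV library c, which had its lowest value. COLEC12, a membrane collectin and scavenger receptor, was counted here only through the grouping of the list. It had 310 to 343 normalized reads in RSV and 896 to 958 in DMSO. The log2 difference of COLEC12 was −1.50 (standard error 0.07), and −1.46 without RSV library c.

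C3 (ENSBTAG00000017280) had 30.3, 25.8 and 45.5 normalized reads in RSV libraries a, b and c, and 122, 127 and 142 in the DMSO libraries. The RSV values rest on 33, 28 and 48 reads. Exact Poisson intervals (95%) were 22.7 to 46.3, 18.6 to 40.5 and 35.4 to 63.6 reads, and they cover counting error only. The RSV intervals overlapped each other and stayed below those of the DMSO libraries, the lowest of which began at 97.7 reads. The fitted log2 difference of C3 was −1.97 (standard error 0.22), or 3.92-fold lower in RSV, and −2.20 without RSV library c, in which C3 was highest within the RSV group. Its standard error was the largest of the 7 genes.

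CFB (ENSBTAG00000046158), the protease of the alternative C3 convertase, had 124, 116.3 and 101 normalized reads under RSV and 189, 175 and 184 under DMSO. The lowest DMSO library was 1.41 times the highest RSV library, the narrowest gap among the 7 genes. The fitted log2 difference was −0.69 (standard error 0.12), or 1.61-fold lower in RSV, and −0.60 without RSV library c. CFB thus had the smallest difference of the 7 genes. Genes outside the shortened list have no symbol, so their values could not be set beside those of CFB.

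Of the 7 genes of the terminal pathway, only C6, a component of the membrane attack complex, was paired. It had 4, 0 and 0 reads under RSV and 9, 19 and 13 under DMSO. The summed reads were 4 in RSV (exact Poisson interval 1.09 to 10.2) and 41 in DMSO (29.4 to 55.6). The mean of C6 was under the minimum of 10 normalized reads, so it did not enter the fit. None of the 8 complement receptors was paired.

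C1QTNF3 (ENSBTAG00000017071), a secreted protein related to adiponectin, had 672, 736 and 424 normalized reads in RSV libraries a, b and c, against 2660, 2613 and 2607 under DMSO. The lowest DMSO library was 3.54 times the highest RSV library. Its mean was 611 ± 165 (SD, n = 3) in RSV and 2627 ± 28.8 (SD, n = 3) in DMSO. The fitted log2 difference was −2.14 (standard error 0.16), or 4.41-fold lower in RSV, the 70th lowest of all mRNAs and the lowest of the 7 genes, and −1.90 without RSV library c. On the log2 scale the RSV libraries spanned 0.79 and the DMSO libraries 0.03.

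Of 14 genes of the C1q/TNF family, 4 (28.6%) were paired, again only through the list of DE mRNAs. All 4 were lower in RSV. That they differ follows from the choice, and their direction was not tested. Limma voom called 16.8% of all mRNAs higher and 17.0% lower, so calls in either direction were about equally common. The median log2 difference of the 4 genes was −1.26. C1QTNF6 had 334, 358 and 206 normalized reads under RSV and 902, 891 and 905 under DMSO, with a log2 difference of −1.62 (standard error 0.16). C1QTNF2 had 80.3 to 99.6 in RSV and 159 to 188 in DMSO, with a log2 difference of −0.90 (standard error 0.14), and −0.97 without RSV library c. C1QTNF5 had 688, 689 and 452 under RSV and 903, 922 and 894 under DMSO, with a log2 difference of −0.60 (standard error 0.15). For C1QTNF5 the difference was −0.40 without RSV library c, and for C1QTNF6 it was −1.38. The groups of all 4 family members did not overlap.

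**Figure D4:**
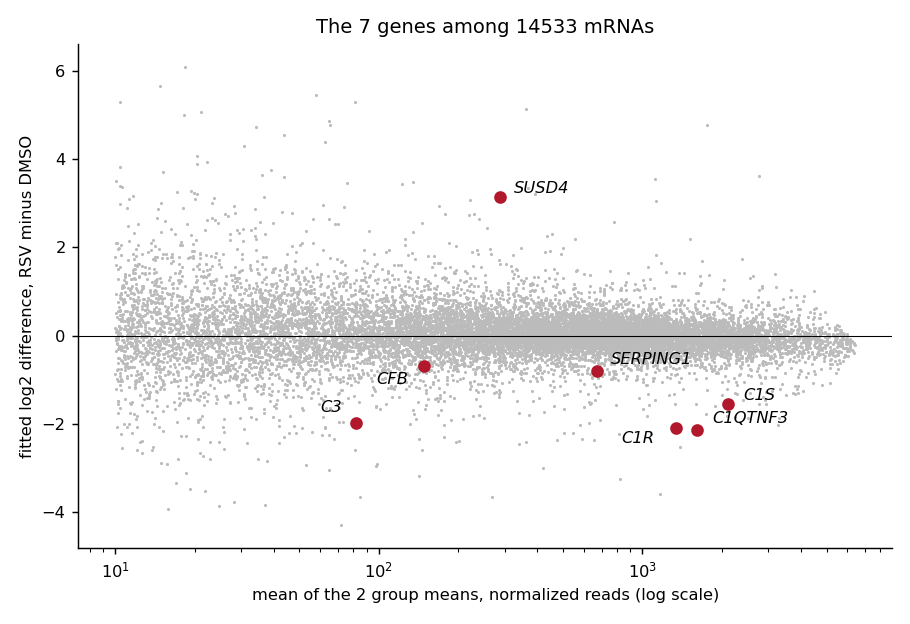
Fitted log2 difference, RSV minus DMSO, against the mean of both group means in normalized reads (log scale) for 14533 mRNAs (grey), with the 7 genes in red. SUSD4 lies near the upper edge at its level, C1R, C1QTNF3, C1S and C3 near the lower edge, and CFB and SERPING1 closer to 0.

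Ordered from the lowest log2 difference, the genes were C1QTNF3, C1R, C3, C1S, SERPING1, CFB and SUSD4. Whether neighbours in this order differed was read from their log2 ratio within each library. The ratio of C1QTNF3 to C1R overlapped between the groups, with means of 0.24 ± 0.17 (SD, n = 3) in RSV and 0.28 ± 0.10 (SD, n = 3) in DMSO. The ratios of C1R to C3, C3 to C1S and SERPING1 to CFB overlapped as well. Each of these overlaps was lost when 1 particular library was left out and kept when any other was, a check added after the values were seen. Without RSV library c, the log2 ratio differed between the groups without overlap by 0.29 for C1R to C3, −0.72 for C3 to C1S and −0.23 for SERPING1 to CFB, in place of −0.12, −0.44 and −0.11. The C3 ratios of RSV libraries a and b rest on 33 and 28 reads of C3. Exact Poisson intervals of these reads were 22.7 to 46.3 and 18.6 to 40.5. With so few reads and libraries, a lost overlap is no test of a difference. Without RSV library b, the ratio of C1QTNF3 to C1R no longer overlapped, with a difference of −0.14 in place of −0.04. The sign of this difference was not stable, at 0.03 without RSV library c and 0.02 without DMSO library a. The ratio of C1S to SERPING1 did not overlap, with means of 1.15 ± 0.14 (SD, n = 3) in RSV and 1.89 ± 0.16 (SD, n = 3) in DMSO. CFB and SUSD4, the last pair in the order, differ in direction, so their ratio adds nothing to the values of each gene.

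The spread among the RSV libraries differed from gene to gene. RSV library c minus the mean of libraries a and b was −0.73 for C1QTNF3 and −0.53 for C1R on the log2 scale. Of the 10888 mRNAs that averaged 100 or more normalized reads, 3.84% lay lower than C1QTNF3 in this measure and 6.52% lower than C1R. Among the other genes, C1QTNF6, MASP1 and C1QTNF5 were also lower in library c, with differences of −0.75, −0.72 and −0.61. C1S, with a value of −0.13, CFB, with −0.26, SERPING1, with 0.11, and SUSD4, with −0.22, lay well inside the range of all mRNAs. C3, which averaged under 100 normalized reads, differed by 0.70 in the opposite direction, and over 14515 mRNAs that averaged 10 or more the 5th and 95th percentiles were −0.84 and 0.70. In the DMSO group the same measure lay between −0.22 and 0.19 for all 14 genes.

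**Figure D5:**
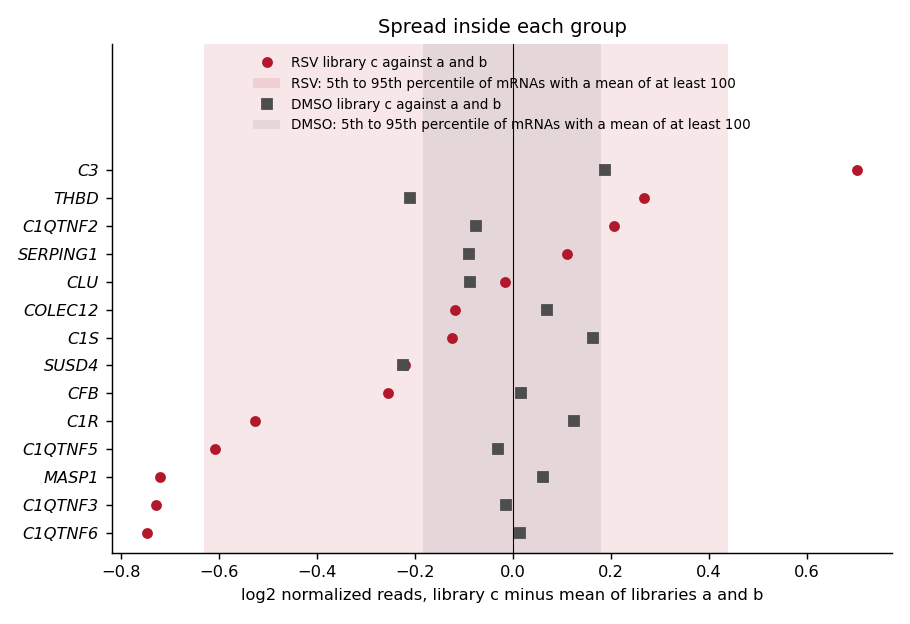
Log2 normalized reads of library c minus the mean of libraries a and b for the 7 genes and 7 further named genes, RSV as red circles and DMSO as grey squares, with the 5th to 95th percentile of mRNAs that averaged 100 or more normalized reads shaded. C1QTNF6, C1QTNF3, MASP1, C1QTNF5 and C1R lie furthest to the left in RSV, C3 lies to the right at 0.70, and the DMSO values stay between −0.22 and 0.19.

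The profiles most like those of SUSD4, C1R and C1QTNF3 were sought among 1696 other named mRNAs by the root mean square difference of log2(normalized reads + 1) over the 6 libraries, after subtraction of the DMSO mean. All candidates are DE mRNAs. For C1R the nearest were CADPS (0.07), C1QTNF3 (0.12) and ANPEP (0.12). C1QTNF3 was nearest to CRABP2 (0.10), ANPEP (0.11) and C1R (0.12). C1R and C1QTNF3 thus stood among the nearest of each other, whereas C1S held rank 59 for C1R. The measure contains the difference between the groups, which was −2.10 for C1R, −2.14 for C1QTNF3 and −1.54 for C1S. It is therefore no separate evidence of a shared profile. CADPS rested on few reads, with 14.2 to 22.1 normalized reads in RSV and 76.1 to 93.6 in DMSO. For SUSD4 the nearest were MGAT5B (0.24), CXCL2 (0.25) and ZAN (0.31). MGAT5B had 646 to 706 normalized reads in RSV and 60.9 to 70.9 in DMSO, and CXCL2, a chemokine, had 252 to 345 and 32.3 to 45.7.

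Markers of cell types that a muscle culture could hold were searched among the named mRNAs. Of 11 markers of myoblasts and myotubes, 3 were paired. MYMK, which drives the fusion of myoblasts, had 1630 to 1998 normalized reads in RSV and 1084 to 1114 in DMSO, and TNNT1, a troponin of slow fibers, had 3587 to 3982 and 2237 to 2654. The summed reads of these markers were 5568 to 5612 in RSV and 3321 to 3752 in DMSO, and MYH3, an embryonic myosin, could not be resolved into reads per library. With its decimal points placed so that the groups differ least, the log2 ratio of its group means was 0.72. MYMK and TNNT1 were thus present in all libraries, while other markers, such as PAX7 and MYOD1, were not paired. Whether those other markers differed between the groups is not known here.

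Of 6 fibroblast markers, 4 were paired, and no reads per library could be recovered for them. With the decimal points placed in the same way, the log2 ratios of the authors' group means were −0.42 for PDGFRA, −0.60 for DCN, −0.82 for LUM and −0.43 for THY1. Fibroblasts are a known source of C1r, C1s, C3 and C1 inhibitor, and the part of these markers in the lower complement values was not tested. Of 9 macrophage markers CD14 alone was paired, with 27.7 to 46.5 normalized reads in RSV and 8.34 to 10.4 in DMSO. None of the 4 adipocyte and 4 endothelial markers was paired, and no paired marker was at 0. In these bulk samples fewer cells of a type and less RNA per cell cannot be told apart.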

How the data were processed

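mRNA libraries of 3 RSV and 3 DMSO cultures were analysed, grouped by their titles. The genes and lists were chosen with earlier results of these data known. The authors filtered the reads with perl scripts and compared the groups with DESeq. The aligner, counter and annotation for mRNA are not given in the sources used here, and the labels name bosTau8 and Bowtie 0.12.9, which the methods tie to miRNA. The deposited table holds group means of read counts divided by size factors for 26332 mRNAs, of which 5873 had no reads. Columns of log2 fold changes, P-values and calls by the authors were not used, nor was the miRNA block.

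In most group means of at least 1 the decimal point is missing. Each mean was written as whole reads over the size factors of 3 libraries, which were read from the smallest values, and the point was placed where a combination existed. A mean was searched only where at most 0.01 combinations were expected by chance, and 494 mRNAs stayed without unique reads. The expected number rises with the mean, so the highest means were left out. The highest group mean with recovered reads was 7183. Ranks, shares of all mRNAs and sums of reads therefore cover only mRNAs with recovered reads. In 2000 simulated means per group, 1900 and 1899 were decoded, all of them rightly. The other means included 100 per group placed above the search range, of which 0 were decoded. The simulated reads were built from reads decoded before, so the share decoded is no estimate for the real means. The RSV libraries had size factors of 1.09, 1.08 and 1.05, and the DMSO libraries of 0.964, 0.960 and 0.886.

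Reads were fitted by the voom method of limma 3.58.1 in R 4.3.3, and library sizes were set by the size factors, over 14533 mRNAs that averaged 10 or more normalized reads, with Benjamini-Hochberg adjustment. The design foresaw this fit for the case that the table holds group means only. Named genes were the listed genes, the paired genes of the complement and C1q/TNF lists, and the 3 nearest profiles of SUSD4, C1R and C1QTNF3. Markers were paired in the same way. The remaining work was done in Python 3.11.15 (pandas 2.3.3, numpy 2.4.6, numba 0.67.0, scipy 1.17.1, matplotlib 3.10.9). Gene order was taken from the RefSeq table of ARS-UCD2.0. Protein and promoter sequences were not used here.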

Additional observations from a re-analysis of the deposited data

How the results depend on the processing

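The log2 differences of the 7 genes kept their direction under all alternatives tried, which were another scaling of the libraries, limma trend with either pseudocount, the ratio of the authors' group means, and each library left out in turn. All 77 values moved by less than the SD between libraries, by at most 0.24. With 1 library left out, the log2 difference ranged from 3.07 to 3.30 for SUSD4, −2.29 to −1.90 for C1QTNF3, −2.22 to −1.93 for C1R, −2.20 to −1.80 for C3, −1.59 to −1.49 for C1S, −0.84 to −0.73 for SERPING1 and −0.75 to −0.60 for CFB. The counts over all mRNAs moved more. Without DMSO library a, b or c, limma voom called 1211, 1278 and 1156 mRNAs higher in RSV in place of 2442, and 1368, 1384 and 1272 lower in place of 2464. With 1 library left out the counts ranged from 1156 to 3166 higher and from 1272 to 2938 lower. An absolute log2 difference of at least 1 left 558 higher and 436 lower. The cause was not tested. No paired analysis was possible because the recovered libraries carry no replicate number. C3 and C6 rest on few reads, which limits what their values show.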
